A study of Mus musculus with 598 samples.

Results

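The cytosolic ribosomal protein genes were described in 598 single-cell RNA sequencing libraries from mouse embryos at gastrulation. The members were chosen by symbol: Rpl or Rps followed by a number, together with Rplp0, Rplp1, Rplp2 and Rpsa, and only where the annotation (GENCODE M21, build GRCm38, the assembly also called mm10) lists a protein-coding gene. This gave 83 of the 40912 genes in the table, 32 for the small subunit of the ribosome and 51 for the large subunit. Another 5 symbols of the same pattern (Rps3a3, Rps3a2, Rps4l, Rps12l1 and Rpl6l) are pseudogenes in that annotation and were left out.

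A ribosome consists of a small subunit, which reads the messenger RNA, and a large subunit, which joins the amino acids. Each subunit is a core of ribosomal RNA dressed with proteins that are nearly all present once per ribosome, so their messenger RNAs are needed in balanced amounts. Many of these messages begin with a run of pyrimidines, through which mTOR signalling sets how strongly they are translated. Their short, abundant messages have also been copied back into the genome many times as processed pseudogenes, which lack introns and can differ from the parent message at only a few bases.

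Each library came from 1 cell carrying a green fluorescent reporter of Mesp1 (Mesp1-GFP+), a transcription factor of nascent mesoderm. The groups were wild type (WT) and knockout (KO) cells of embryos at E6.75, the KO group with 85 cells, and WT cells at E7.25, and the labels name no other allele or treatment. They identify neither the targeted gene nor the embryos, and their protocol text describes adult bone marrow of C57BL/6 mice instead. Each group therefore counts as 1 sample, and no test was run. Intervals on reads cover counting error only. Intervals on shares of cells take cells as independent draws, and neither kind covers the spread between embryos. Mesp1 lay at 7.40 CPM (reads of a gene scaled to a library of 1000000 reads on genes) in the KO cells and between 406 and 531 CPM in the WT groups.

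The libraries fall into 2 sets that the labels do not name. Set 1 holds the cells with reads of at least 5 of 8 chosen genes: 83 WT cells at E6.75, all 85 KO cells and the E7.25 cells that make up 28.9% of the 598. Set 2 holds 89 WT cells at E6.75 and E7.25 cells that make up 28.1%. Depth per cell, between 101895 and 14159574 reads on genes, had a median of 792889 in the first set and 2079708 in the second. KO cells lie only in set 1, so every comparison was made within a set. Y-linked reads were found in 53 of the 83 WT cells, 49 of the 85 KO cells and 54.9% of the E7.25 cells of set 1, and in 0 cells of set 2. Of 4 embryonic erythroid markers, at least 3 had no read in every group, and markers of nascent mesoderm summed to between 2238 and 3705 CPM.

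Messages for ribosomal proteins took up about 3% of each cell's reads, and most cells differed little in this share. In WT cells at E6.75 of set 1 the lowest, median and highest shares were 2.47, 3.17 and 4.38% (n = 83 cells). The KO cells lay at 2.53, 3.19 and 10.3% (n = 85). At E7.25 the set 1 cells lay at 1.78, 2.94 and 3.96%. The 3 groups overlapped over most of their range, and only the KO group held cells far above the others. In set 2 the lowest, median and highest shares were 0.527, 3.19 and 4.68% at E6.75 (n = 89) and 0.466, 3.0 and 5.51% at E7.25. Thus the medians of the 2 sets lay close together at each stage, and the lower tail was longer in set 2.

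**Figure D1:**
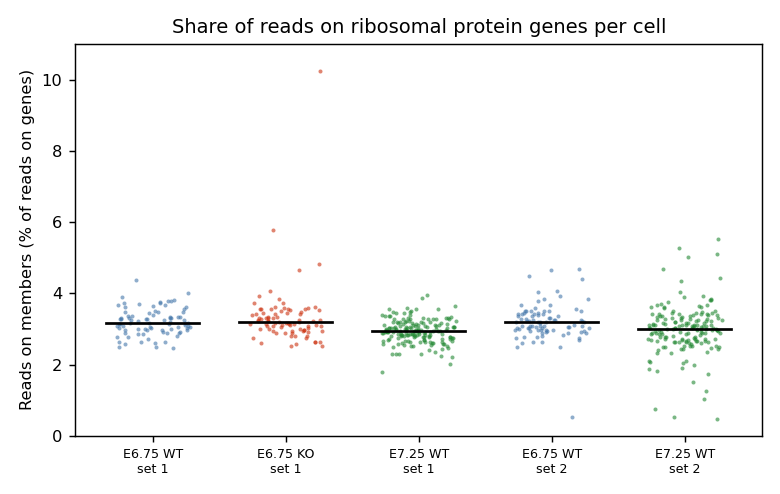
Share of each cell's reads on genes that fell on the 83 ribosomal protein genes (vertical axis, percent), for the 3 groups and 2 library sets (horizontal axis). Each point is 1 cell and each black line a median. The medians lie between 2.94 and 3.19%, with 6 cells of set 2 below 1.5% and 3 cells above 5.5%.

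In all, 9 of the 598 cells stood apart. Those below 1.5% were all of set 2, 1 at E6.75 and 5 at E7.25, and their mitochondrial reads were also few, between 0.669 and 2.65% against group medians of 5.73 and 3.59%. The cells above 5.5% were 2 KO cells and 1 cell at E7.25 of set 2. KO cell 78 had 10.3% of its reads on members and was the shallowest library of all, with 101895 reads. KO cell 84 had 5.77% and was deep, with 6700760 reads, so it weighs much in any sum over KO cells. Their part in a group difference is given below as values with and without them.

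Levels of different members were compared per length, as RPKM, which is CPM divided by the length of the merged exons in kilobases, averaged over the 5 groups of cells. Among the highest were Rpl4 and Rpl8, large-subunit proteins, at 2841 and 2546 RPKM, Rps3, at the entry of the messenger RNA, at 1594 RPKM, and Rplp0, the base of the stalk that binds elongation factors, at 1459.7 RPKM. The stalk partners of Rplp0, Rplp1 and Rplp2, lay at 1398 and 314.7 RPKM. At the other end, among members of at least 10 CPM, Rpl35, Rpl9 and Rpl17 lay at 15.05, 12.3 and 10.96 RPKM. On this scale these large-subunit genes lay more than 100-fold below Rpl4, a fold that depends on the length used. The merged exons of Rpl9 and Rpl4 are 2735 and 1538 bases long, and their coding sequences 579 and 1260 bases.

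Members that share much sequence with other genes had lower levels. Each coding sequence was cut into all windows of 50 bases, and a window counted as shared where it occurred letter for letter, on either strand, in the transcript of another annotated gene. Over the 83 members the Spearman correlation between the share of such windows and RPKM was -0.49, given as a description across genes, which are not independent replicates. The 16 members with at most 60% of windows shared had a median of 640.1 RPKM. For the 40 members between 60 and 100% the median was 140.3 RPKM, and for the 27 members whose windows were all shared it was 63.99 RPKM. Rpl4 shared 20.2% and Rps3 8.05%, whereas Rpl9 and Rpl17 shared 100%. How reads that match several genes were counted is not known from the labels, and its part in these levels was not tested. A low RPKM of a member with many copies is therefore an uncertain measure of its message. Together, the 732 annotated copies held between 0.952 and 1.15% of reads, beside 2.82 to 3.46% on the members.

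**Figure D2:**
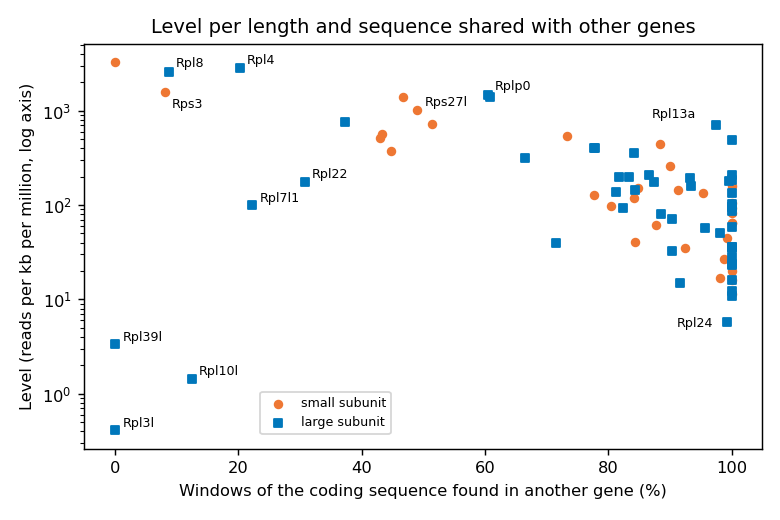
Level of each of the 83 members (vertical axis, RPKM averaged over the 5 groups of cells, log axis) against the percentage of 50-base windows of its coding sequence that also occur in another annotated gene (horizontal axis). Circles are small-subunit and squares large-subunit genes. Rpl4, Rpl8 and Rps3 lie at the upper left, members with 100% of windows shared lie below 500 RPKM, and the paralogs Rpl39l, Rpl10l and Rpl3l lie at the lower left.

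The coding sequences of 4 members whose values turned on a copy are shown beside that copy. Each stretch of 60 bases is read 5′ to 3′ from the coding strand of the annotated reference transcripts, and capitals mark the bases that differ within the pair. The small number of capitals shows how few positions can tell a read of the member from a read of its copy.
Rpl26, large subunit (chr11:68901583-68906989, with Gm15772 at chr5:3236431-3236868, 99.5% identical over the aligned coding sequence), codons 40 to 59 of the coding sequence:
Rpl26: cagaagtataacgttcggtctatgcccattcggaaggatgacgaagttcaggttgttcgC
Gm15772: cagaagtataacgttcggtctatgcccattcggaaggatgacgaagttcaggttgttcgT
Rps2, small subunit (chr17:24718116-24721929, with Rps2-ps13 at chrX:52898588-52899469, 99.2% identical), codons 9 to 28:
Rps2: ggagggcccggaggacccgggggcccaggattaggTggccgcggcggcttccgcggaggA
Rps2-ps13: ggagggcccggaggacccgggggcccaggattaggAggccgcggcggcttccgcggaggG
Rpsa, small subunit, also known as a laminin receptor precursor (chr9:120127689-120132369, with Rpsa-ps10 at chr3:150072658-150073542, 99.3% identical), codons 54 to 73:
Rpsa: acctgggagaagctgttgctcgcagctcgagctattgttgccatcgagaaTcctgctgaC
Rpsa-ps10: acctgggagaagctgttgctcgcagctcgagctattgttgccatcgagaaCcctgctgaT
Rpl3, large subunit, near the peptidyl transferase centre (chr15:80077791-80091868, with Rpl3-ps1 at chrX:13202571-13203780, 99.8% identical), codons 1 to 20:
Rpl3: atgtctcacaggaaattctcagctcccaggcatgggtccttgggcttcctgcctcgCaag
Rpl3-ps1: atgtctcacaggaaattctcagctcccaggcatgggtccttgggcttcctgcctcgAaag

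The first comparison set KO against WT cells at E6.75 in set 1, and most members were slightly higher in the summed KO reads. Of the 83 members, 78 had a mean of at least 10 CPM over the 2 sums and were compared, on the scale of the log2 ratio of CPM with 1 CPM added. Of these, 68 lay above a ratio of 1, where 47.5% of all 8607 genes compared did, and 10 lay below. The median log2 ratio was 0.23 for the members and -0.02 for all genes. No member lay past 1.5-fold in either direction, where 5.74% of all genes did upward and 10.6% downward. Small-subunit genes had a median of 0.27 (30 of 31 above 1) and large-subunit genes of 0.20 (38 of 47). The shift of the sums rested on few cells: without KO cell 84 the members' median was 0.13, without the deepest 10% of cells of each group 0.07, and with the median over cells in place of the sum 0.06. Among cells without Y-linked reads it was 0.03 and among cells with them 0.34. Markers of other cell types also differed between the same sums. Epiblast and epithelial markers summed to 1081 CPM in the KO and 584 CPM in the WT cells, haemato-endothelial markers to 29.5 and 310.6 CPM, cardiac markers to 5.61 and 39.04 CPM, and paraxial markers to 5.47 and 38.8 CPM. Their part in the shift was not tested.

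Single members at the ends of this comparison differed by small folds. Rpsa had lowest, median and highest levels of 22.9, 64.3 and 119.1 CPM per cell in WT and 41.7, 94.3 and 205.2 CPM in KO cells, with a log2 ratio of the sums of 0.52. The ranges overlapped, and the KO median lay below the 95th percentile of the WT cells, 105.1 CPM. Rpl26 lay at 13.8, 76.3 and 325.3 CPM in WT and 23.1, 96.3 and 805 CPM in KO cells (log2 ratio 0.55), again with overlap and with 1 KO cell far above the rest. Without KO cell 84 the log2 ratio of Rpl26 was 0.36, and without WT cell 83 it was 0.69, past 1.5-fold. Rpl9, of the large subunit, had a log2 ratio of 0.52, which was 0.34 without KO cell 82 and 0.60, past 1.5-fold, without KO cell 71. On the lower side, Rps2 lay at 38.3, 165.7 and 374 CPM in WT and 30.6, 141.6 and 393 CPM in KO cells (log2 ratio -0.34). Rpl3, Rpl27a and Rpl5 followed with log2 ratios of -0.14, -0.12 and -0.12. The direction of Rpl3 depended on the measure, since the log2 ratio of its cell medians was 0.14, higher in KO. Rpl5 and Rpl11, which with 5S ribosomal RNA bind and hold back Mdm2 when ribosome assembly fails, differed in direction: Rpl11 had a log2 ratio of 0.36.

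**Figure D3:**
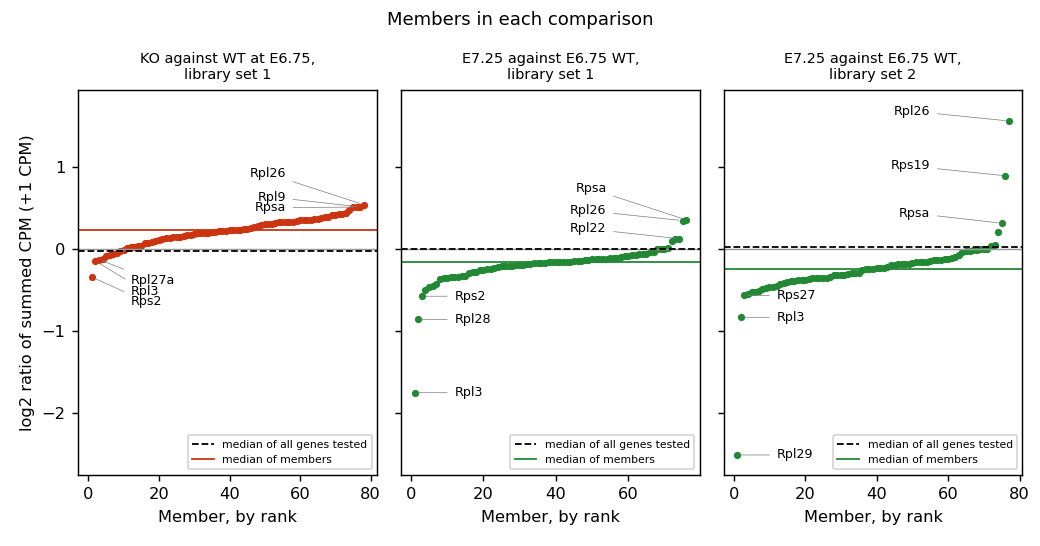
Log2 ratio of summed CPM, with 1 CPM added, for each member of at least 10 CPM (points, ranked from lowest to highest along the horizontal axis) in the 3 comparisons. Solid lines are the members' medians (0.23, -0.16 and -0.24) and dashed lines the medians of all genes compared. Most members lie in a narrow band, and Rpl3, Rpl28, Rpl29, Rpl26 and Rps19 lie outside it in a stage comparison.

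Between stages, the members were lower at E7.25 in both library sets, each by a small amount. In set 1, 68 of 76 members compared lay below a ratio of 1 at E7.25, where 49.5% of all 8804 genes did, with a median log2 ratio of -0.16 against 0.00 for all genes. In set 2, 68 of 77 lay below 1, where 46.5% of 9185 genes did, with a median of -0.24 against 0.02. The 2 stage comparisons share no cells. Marker levels and signs of RNA content differed between the same groups. At E6.75 and E7.25, epiblast and epithelial markers summed to 584 and 411 CPM in set 1 and to 725 and 545 CPM in set 2. Cardiac markers summed to 39.04 and 210.6 CPM in set 1 and to 16.9 and 217.9 CPM in set 2, and paraxial markers to 38.8 and 205.4 CPM and to 37.6 and 488 CPM. The median mitochondrial share per cell was 4.94 and 4.10% in set 1 and 5.73 and 3.59% in set 2. The median level of the nuclear RNA Malat1 was 169.1 and 82.9 CPM in set 1 and 419.9 and 189.5 CPM in set 2. Their part in the stage difference was not tested. No member was past 1.5-fold higher in set 1 (11.6% of all genes) and 2 were lower (7.24% of all genes), namely Rpl3 and Rpl28, the latter under 1.5-fold once 1 deep WT cell was left out. Set 2 had 2 members higher, Rpl26 and Rps19 (8.6% of all genes), and 2 lower, Rpl29 and Rpl3 (4.96% of all genes). These 5 genes were uneven across sets, and 4 of them are treated with their copies below.

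Rpl28, a large-subunit protein, had lowest, median and highest levels of 0, 15.8 and 117.6 CPM at E6.75 and 0, 11.4 and 51.2 CPM at E7.25 in set 1, with a log2 ratio of -0.85. In set 2 it lay at 4.75, 28.2 and 66.5 and 0, 24.98 and 78.1 CPM, with a log2 ratio of -0.19. One WT cell, the deepest of its group with 6633770 reads, gave 34.3% of the Rpl28 reads at E6.75 in set 1, and without it the log2 ratio was -0.38, under 1.5-fold. The stages overlapped in both sets, and the log2 ratio of cell medians in set 1 was -0.43. All windows of its coding sequence occur in other genes.

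Rpl29, a large-subunit protein with affinity for heparin, set the E6.75 cells of set 2 apart from all others. Its lowest, median and highest levels there were 9.50, 97.4 and 217.7 CPM (n = 89), against 0, 16.8 and 42.2 CPM at E7.25 of the same set. In set 1 the values were 0, 20.04 and 143.5 CPM in WT cells at E6.75, 0, 22.2 and 147.2 CPM in KO cells and 0, 15.7 and 48.9 CPM at E7.25. The 5th percentile of the E6.75 cells of set 2, 60.3 CPM, lay above the highest cell at E7.25 of that set, while the stages of set 1 overlapped and their medians lay close. The log2 ratio between stages was -2.51 in set 2, that is 5.69-fold lower at E7.25, and -0.36 in set 1. Rpl29 has 47 annotated copies, and with the reads of all copies added the set 2 log2 ratio was -1.31. Since the 2 sets disagree, the stage difference of Rpl29 cannot be told apart from a difference between the sources of the E6.75 cells of the sets.

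In set 2, Rpl26 was higher and its copy Gm15772 lower at E7.25, and their sum differed little. Rpl26 had lowest, median and highest levels of 2.64, 59.2 and 116.2 CPM at E6.75 and 8.11, 192.7 and 719 CPM at E7.25 (log2 ratio 1.57). Gm15772 lay at 12.1, 148.6 and 543 CPM at E6.75 and 0, 16.3 and 160.5 CPM at E7.25. It was under 50 CPM in 1 of 89 cells at E6.75 and in 59.5% of cells at E7.25. The median over cells of the 2 genes added together was 211.9 and 233.2 CPM in set 2, and 184.8, 195.8 and 197.2 CPM in WT at E6.75, KO and E7.25 cells of set 1. With the reads of all 8 copies added to Rpl26, the log2 ratio between stages in set 2 was 0.07.

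Rps19, a gene mutated in Diamond-Blackfan anaemia, showed part of the same pattern. Its levels in set 2 were 12.7, 140.99 and 302.3 CPM at E6.75 and 15.4, 246.9 and 867 CPM at E7.25 (log2 ratio 0.90), and 87.7, 167.1 and 323.7 and 84.1, 180.2 and 336.3 CPM in set 1 (log2 ratio 0.10). The copy Rps19-ps6 had medians of 143.04 CPM at E6.75 and 127.2 CPM at E7.25 in set 2. Adding all copies left a log2 ratio of 0.40 in set 2, under 1.5-fold.

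Rpl3 had the lowest stage ratio of the members compared in set 1, and it was the only one past 1.5-fold in the same direction in both sets. In set 1 it lay at 10.9, 131.95 and 389 CPM in WT cells at E6.75, 13.7, 145.5 and 329.5 CPM in KO cells and 0, 43.9 and 164.2 CPM at E7.25. Set 2 gave 3.26, 82.6 and 185.6 CPM at E6.75 and 0.295, 35.1 and 146.8 CPM at E7.25. KO and WT cells at E6.75 covered the same range, and the E7.25 cells lay lower with overlap. The sums were 3.36-fold lower at E7.25 in set 1 (log2 ratio -1.75) and 1.78-fold lower in set 2 (log2 ratio -0.83). Its copy Rpl3-ps1, on chromosome X, took more reads than Rpl3 in every group, with medians between 516 and 644 CPM. With all copies added, the log2 ratio between stages was -0.25 in set 1 and -0.03 in set 2. The ratio of Rpl3 alone was thus farther from 0 than that of the gene and its copies together.

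Reads of Rps2-ps13, a copy of Rps2 on chromosome X, fell into separate classes of cells. It was under 50 CPM in 37 of 83 WT cells at E6.75 in set 1 and in 46 of 89 in set 2. The same held for 0 of 85 KO cells (exact 95% interval 0 to 4.25%), 0% of the cells at E7.25 in set 1 and 3 cells at E7.25 in set 2, or 1.79%. Its median was 137.8 CPM in WT and 240.2 CPM in KO cells of set 1, with the WT range from 0 to 354 CPM. Rps2 itself was lower in KO than in WT cells, with a log2 ratio of -0.34, but with all its copies added the ratio was 0.33. The stage ratio of Rps2 in set 1 likewise went from -0.57 to 0.09. The direction of Rps2 therefore depends on whether copies are counted with it.

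Rpsa and Rpsa-ps10 differed from WT in opposite directions in the KO. The copy had lowest, median and highest levels of 75.4, 150.7 and 482 CPM in WT and 17.5, 42.9 and 102.5 CPM in KO cells of set 1, and it was under 50 CPM in 0 of 83 WT and 60 of 85 KO cells. At E7.25 it was under 50 CPM in 33.5% of cells of set 1 and 28.6% of set 2, against 1 of 89 at E6.75 in set 2. The log2 ratio of Rpsa was 0.52 for KO against WT, and 0.36 and 0.32 for the stages in set 1 and set 2. With all copies added these became -0.47, -0.19 and -0.11. All 3 signs were reversed, so the direction for Rpsa also depends on whether copies are counted with it.

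**Figure D4:**
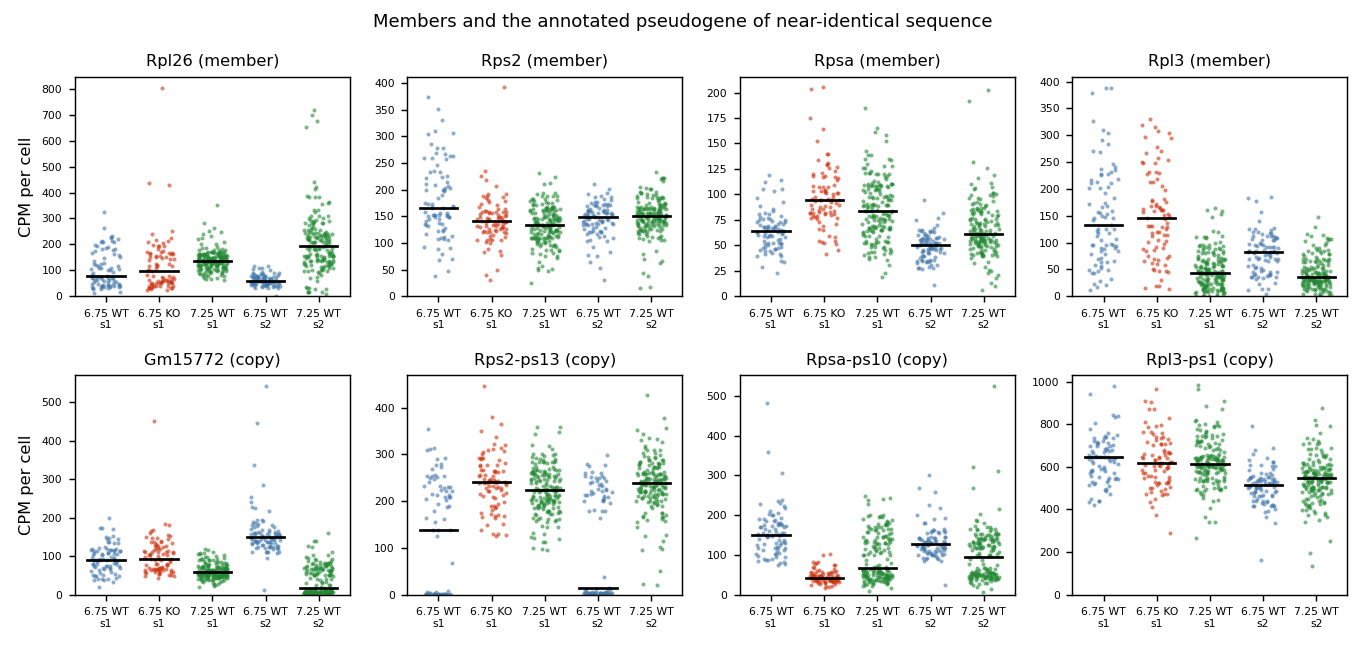
CPM per cell (vertical axes, a scale for each panel) of 4 members (upper row) and of an annotated pseudogene of near-identical sequence (lower row), in the 3 groups and 2 library sets (s1, s2). Points are cells and black lines medians. Rps2-ps13 and Rpsa-ps10 show a lower and an upper band of cells in some groups, and Gm15772 is near 0 in many cells at E7.25 of set 2.

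Over the whole list, adding copies left each median on the same side of 0. With the reads of all copies added to every member, the median log2 ratio was 0.22 for KO against WT, -0.14 for the stages in set 1 and -0.18 in set 2. Examples with few shared windows are Rps3 and Rpl4: between stages, Rps3 had log2 ratios of -0.20 and -0.12 in set 1 and set 2, and Rpl4 of -0.11 and -0.0025. Not every such member was lower in both sets. Rpl8 (8.69% shared) had -0.06 and 0.008, and Rpl22 (30.8% shared) had 0.13 and -0.10. Rpl4 lay at 2707, 5261 and 6561 CPM in WT cells at E6.75 of set 1 and at 3149.9, 4734 and 6719 CPM at E7.25. The stages overlapped almost fully. Rps27l, a small-subunit paralog known as a p53 target, was among the lowest in both stage comparisons, with log2 ratios of -0.42 and -0.52. Its medians at E6.75 and E7.25 were 541 and 408 CPM per cell in set 1 and 705 and 544 CPM in set 2, with overlap.

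The list holds 6 paralogs of other members, and 3 of these were read in a minority of cells. Rpl10l and Rpl39l are the testis-enriched relatives of the X-linked genes Rpl10 and Rpl39, and Rpl3l is the muscle relative of Rpl3. For the first pairs, the 60-base stretch with the most differing bases is shown. Elsewhere the coding sequences are more alike, with longest identical runs of 23 bases for Rpl10 and Rpl10l and 38 bases for Rpl39 and Rpl39l. Of the 50-base windows, Rpl10l shares 12.4% and Rpl39l 0% with other genes. Capitals mark the bases that differ, as above.
Rpl10 (chrX:74270812-74273135) and Rpl10l (chr12:66283379-66284401), 84.8% identical, a stretch from the second part of the coding sequence:
Rpl10: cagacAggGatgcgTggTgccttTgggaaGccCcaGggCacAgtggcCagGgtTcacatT
Rpl10l: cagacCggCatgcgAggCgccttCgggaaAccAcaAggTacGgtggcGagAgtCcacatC
Rpl39 (chrX:37082520-37085402) and Rpl39l (chr16:10170226-10174911), 85.3% identical, codons 32 to 51:
Rpl39: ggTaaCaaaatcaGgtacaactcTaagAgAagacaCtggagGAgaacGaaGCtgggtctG
Rpl39l: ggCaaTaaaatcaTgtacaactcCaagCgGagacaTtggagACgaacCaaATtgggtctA

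Rpl10l was read at E6.75 and nearly absent from the reads at E7.25. It had a read in 15 of 83 WT cells at E6.75 in set 1, 18.1% (exact 95% interval 10.48 to 28.05), in 18 of 85 KO cells, 21.2% (exact 95% interval 13.1 to 31.4), and in 6 cells at E7.25, 3.47% (exact 95% interval 1.28 to 7.40). In set 2 the shares were 15.7% (exact 95% interval 8.88 to 24.98) at E6.75 and 4.17% (exact 95% interval 1.69 to 8.40) at E7.25. The summed level was 2.47 CPM at E6.75 and 0.0485 CPM (9 reads) at E7.25 in set 1, and 1.68 CPM and 0.0190 CPM (7 reads) in set 2. The highest single cell had 23.7 CPM at E6.75 and 2.77 CPM at E7.25 in set 1. Taken as plain CPM, the ratio of E6.75 to E7.25 was 50.9 in set 1 (exact 95% counting interval 26.4 to 112.8) and 88.6 in set 2 (42.4 to 222.4). Single cells weighed much in these ratios. In set 1, 1 cell gave 26.9% of the reads at E6.75 and another gave 4 of the 9 reads at E7.25, and the ratio was 39.8 without the first and 90.99 without the second. Leaving out each cell of set 2 in turn gave ratios from 59.3 to 102.99. After thinning of each cell to 100000 reads, 12.05% of WT cells at E6.75 in set 1 and 7.87% in set 2 kept a read, and no cell at E7.25 did. Its parent Rpl10 had a median of 93.05 CPM per cell at E6.75 and 66.6 CPM at E7.25 in set 1.

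Rpl39l was also read in fewer cells at E7.25. It had a read in 26.5% (exact 95% interval 17.4 to 37.3) of WT cells at E6.75, 35.3% (exact 95% interval 25.2 to 46.4) of KO cells and 9.25% (exact 95% interval 5.38 to 14.6) of cells at E7.25 in set 1, and in 28.1% (exact 95% interval 19.1 to 38.6) and 10.7% (exact 95% interval 6.47 to 16.4) at E6.75 and E7.25 in set 2. Its summed levels at E6.75 and E7.25 were 2.72 and 1.14 CPM in set 1 and 4.31 and 0.728 CPM in set 2. Among set 1 cells with Y-linked reads the log2 ratio of the stages was 0.08, against -0.80 over all set 1 cells, and among cells without such reads it was -2.07. The KO level was 5.05 CPM, with a log2 ratio of 0.70 to WT that was -0.08 without the deepest 10% of cells and 0.46 without KO cell 53. Rpl39 itself had medians of 221.4, 221.9 and 203.1 CPM per cell in WT, KO and E7.25 cells of set 1.

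Rpl3l had a read in 3.61 to 8.33% of cells in every group and did not separate the stages. In WT cells at E6.75 of set 1, a single cell gave 78.9% of its reads.

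**Figure D5:**
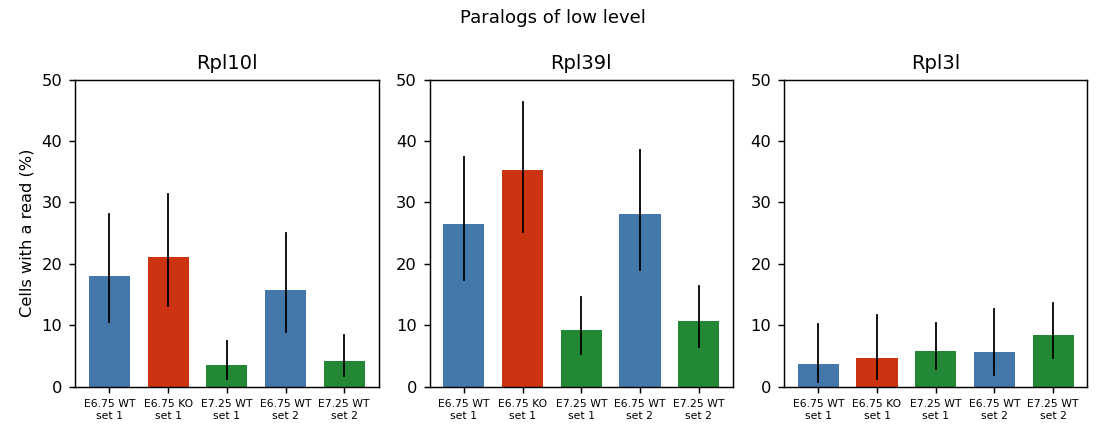
Percentage of cells with at least 1 read (vertical axis) of Rpl10l, Rpl39l and Rpl3l in the 3 groups and 2 library sets. Lines are exact 95% binomial intervals over cells, which are not replicates of a stage or genotype. Rpl10l and Rpl39l were read in a smaller share of cells at E7.25 than at E6.75 in both sets, while the share for Rpl3l was low in every group.

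The other 3 paralogs were read in most cells at levels like those of many parents. Rps27l had 1029 RPKM, far above its parent Rps27 at 19.9 RPKM, of which 100% of windows are shared with other genes. Rpl22l1 had 144.2 RPKM beside 175.1 RPKM of Rpl22, and Rpl7l1, a ribosome assembly factor, had 99.5 RPKM beside 403 RPKM of Rpl7. Between KO and WT, Rpl22 and Rpl22l1 had log2 ratios of 0.19 and 0.29, while the log2 ratios of their cell medians were -0.028 and -0.19, in the other direction. The stage ratios of Rpl22 differed in sign, at 0.13 in set 1 and -0.10 in set 2. Rpl7l1 lay near 0, with log2 ratios of -0.021, -0.00091 and -0.0016 in the 3 comparisons.

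The 4 X-linked members did not form a group of their own. Rps4x had log2 ratios of 0.03, -0.14 and -0.07 for KO against WT and for the stages in set 1 and set 2. Rpl10 had 0.44, -0.26 and -0.51, Rpl36a 0.16, -0.45 and -0.35, and Rpl39 0.24, -0.08 and -0.32. The KO ratio of Rpl36a was -0.018 without KO cell 71, and that of Rpl39 was 0.12 without KO cell 84. In WT cells at E6.75 of set 1, Rps4x had a median of 278.6 CPM in the 53 cells with Y-linked reads and 332.1 CPM in the 30 cells without. The same medians were 278.7 and 289.8 CPM in KO cells and 279.8 and 267.4 CPM at E7.25, so their order turned at E7.25 only. The summed levels at E7.25 kept the order of the WT cells at E6.75, at 258.4 CPM with and 266.8 CPM without Y-linked reads. In the KO cells the summed levels had the reverse order, higher in the cells with Y-linked reads.

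From cell to cell, most members varied together, with higher correlations in set 2. For each member of at least 10 CPM, the Pearson correlation over cells between its log2 CPM and that of the sum of the other members was taken within a group. The median over 78 members was 0.34 in WT cells at E6.75 of set 1 (n = 83 cells), 0.54 in KO cells (n = 85) and 0.40 at E7.25. In set 2 it was 0.73 at E6.75 (n = 89) and 0.81 at E7.25. Cells of a group differ in library depth, and how reads that match several genes were counted is not known. The part of either in these correlations was not tested, so the values are descriptions. Without the cells that stood apart in their share of reads, the median was 0.41 in KO cells (2 left out), 0.47 at E6.75 in set 2 (1 left out) and 0.67 at E7.25 in set 2 (6 left out). The values that follow include these cells. Averaged over the 5 groups, Rpl32 and Rplp1 were among the closest to the rest (0.83 and 0.82). Lowest were Rpl3 (-0.15) and Rpl7l1 (-0.10), which did not follow the rest. Others followed it only weakly, such as Rpl12 (0.09), Rpl15 (0.11), Rpl10 (0.12), Rpl5 (0.13) and Rpl9 (0.13). Relative spread was least for Rpl4, Rplp0 and Rps3, whose coefficient of variation over cells averaged 0.15, 0.17 and 0.18. Spread was widest for the scarce members Rpl3l, Rpl10l, Rpl39l, Rpl24 and Rps28, between 1.04 and 6.27.

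Among 4232 other genes of at least 50 CPM, the 10 most like the summed members had mean correlations from 0.75 to 0.79 over the 5 groups. Of these, 8 were annotated copies of members: Gm15427, Gm5805, Rpl37rt, Rps16-ps2, Gm4149, Rps13-ps2, Rps10-ps1 and Rps19-ps6. The others were Gm9843, a pseudogene that shares no window with a member by the count used here, and Gm10073. Gm10073 is annotated as protein-coding, and the count took only pseudogenes as copies, so it does not tell whether Gm10073 shares windows.

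Members shared a promoter feature that the choice by symbol did not use. The RefSeq promoter table (assembly GRCm38.p6, 250 bases before to 50 after each start) held 63 of the 83 members. A run of at least 8 C or T, read on the coding strand within 50 bases either side of the annotated start, occurred in 79.4% of them and in 35.7% of all 27025 promoters. The letters CTTCCGG, a core bound by ETS factors, occurred on either strand in 39.7% of members and 9.12% of all promoters. GGGCGG, a GC box, occurred in 60.3 and 35.9%, AAGATGGC, bound by YY1, in 7.94 and 2.88%, CACGTG, an E-box, in 7.94 and 7.24%, and TATAAA in 9.52 and 14.2%. A match describes letters in a window and is not a measured site. The count takes a run anywhere in its span, and not only at the start. The longest run begins 40 bases after the start in Rps2 and 47 bases before it in Rps16. Apart from the last, the following 40-base windows show runs that span the start, from members of both subunits. The run is in capitals.
Rpl15 (chr14:18270972-18271011, minus strand): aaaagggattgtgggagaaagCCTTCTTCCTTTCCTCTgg
Rpl14 (chr9:120571492-120571531, plus strand): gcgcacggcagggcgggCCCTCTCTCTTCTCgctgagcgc
Rps18 (chr17:33955651-33955690, minus strand): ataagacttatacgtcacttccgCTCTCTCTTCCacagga
Rps10 (chr17:27635230-27635269, minus strand): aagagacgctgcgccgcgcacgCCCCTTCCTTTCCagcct
Rpl10l (chr12:66284412-66284451, minus strand): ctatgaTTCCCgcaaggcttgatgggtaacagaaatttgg
The last of these, from the paralog Rpl10l, is shown for contrast, since its longest run has 5 letters. The longest runs of Rps28 and Rpl19 also have 5 letters. Rpl39l does hold a run of 9 letters, and so the runs do not separate the scarce paralogs from the rest.

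Related parts of the translation machinery were set beside the members. The 74 mitochondrial ribosomal protein genes, which serve the ribosome inside mitochondria, had a median of 0.21 for KO against WT. Of 71 compared, 57 lay above 1, where 47.5% of all genes did. Past 1.5-fold higher were 3 of them, against 5.74% of all genes. Their stage medians were -0.17 and -0.13 in set 1 and set 2. The KO median and the stage median of set 1 were close to those of the cytosolic members. The 21 translation factors lay closer to 0, with medians of 0.09, -0.10 and -0.04 and none past 1.5-fold. The shares of all genes past 1.5-fold are given with each comparison above. Of 30 ribosome biogenesis genes, 20 lay above 1 in KO (median 0.06), where 47.5% of all genes did. At E7.25, 23 and 26 lay below 1 in set 1 and set 2 (medians -0.10 and -0.25). Among all genes, 49.5 and 46.5% did.

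In KO against WT, neither MYC and mTOR genes nor p53-pathway genes gave a common direction. In the list of 20 MYC and mTOR genes, 18 were compared, and 8 lay above 1 in KO against WT, where 47.5% of all genes did. Above 1 at E7.25 were 7 of the 18 in set 1 and 10 in set 2, where 50.5 and 53.5% of all genes were. Between stages Myc had log2 ratios of -0.57 and -0.86 in set 1 and set 2, and Mycn had 0.55 and 0.64. Of 6 p53-pathway genes read in nucleolar stress, 2 were past 1.5-fold lower in KO cells: Ccng1 (log2 ratio -1.23) and Phlda3 (-1.95). Over all genes compared, 10.6% were past 1.5-fold lower in KO. Trp53 itself had a log2 ratio of 0.25 and Cdkn1a of 0.11. Of the 6 genes, 3 lay above a ratio of 1 in KO and 3 below. Between stages, 3 of the 6 were past 1.5-fold lower at E7.25 in set 1 (median log2 ratio -0.61) and 0 in set 2 (median -0.18). Among all genes compared, 7.24% were past 1.5-fold lower in set 1 and 4.96% in set 2. Below a ratio of 1 at E7.25 were 5 of the 6 in set 1 and 4 in set 2, where 49.5 and 46.5% of all genes were.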

How the data were processed

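The authors deposited 1 table of raw counts per gene for 598 single-cell libraries (whole-transcript plate method, Nextera XT, per the labels). The submitters' processing notes name GSNAP, HTSeq 0.5.3p3 and mm10. How reads with several matches were treated, and strand, is not given in the sources used here. No molecular identifiers are named, so duplicate reads may not be independent. Every cell had at least 100000 reads and 2000 genes. Depths ran from 101895 to 14159574 reads.

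Of 40912 genes, 40254 matched a symbol in GENCODE M21. Reads were summed by group and library set, scaled to a total of 1000000 (CPM), and compared as log2 ratios with 1 CPM added for genes of at least 10 CPM. Each group counts as 1 sample, so no p-value is given, and past 1.5-fold was the call. Set 1 holds cells in which 5 or more of Dusp15, Foxe1, Hoxd13, Kcnk12, Pou3f3, Six3, Sox3 and Vax1 had reads. Y-linked reads means over 3 CPM summed over 3 Y-linked genes. edgeR 4.0.16 and DESeq2 1.42.0 gave alternative scaling factors only. Exact Poisson and Clopper-Pearson intervals are at 95%. The summing was tested on simulated counts.

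Members, lists, markers and rules were chosen with earlier results of these data known. Named members are the 4 highest and 4 lowest per comparison, the 5 highest and 3 lowest per length, paralogs with parents, X-linked members, Rplp0, Rplp1, Rplp2, Rpsa, Rpl5, Rpl11, and the 5 most variable. Some of them are not reported here. Copies and other genes beyond that rule were chosen after their values were seen. Rps4l, in that rule as a paralog, is a pseudogene in the annotation and was not used. No promoter was found for 20 members. Alternatives were other scalings, pseudocounts, filters and cell subsets. Cell medians, leaving out the 9 cells that stand apart, leaving out each cell and adding all copies were chosen after seeing the data.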

Additional observations from a re-analysis of the deposited data

How the results depend on the processing

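The members' median log2 ratio was 0.23 for KO against WT, -0.16 for the stages in set 1 and -0.24 for the stages in set 2, and its sign was the same under every alternative run. Members past 1.5-fold numbered 0 higher and 0 lower in KO, 0 higher and 2 lower at E7.25 in set 1, and 2 higher and 2 lower at E7.25 in set 2. The alternatives that moved these values follow, and the cause was not tested for any of them unless the setting itself removes cells or members.

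For KO against WT, the median was 0.30 with TMM scaling, 0.27 with median-of-ratios scaling, 0.13 with cells weighted equally and 0.11 with cells thinned to 100000 reads. It was 0.072 without the deepest 10% of cells, 0.059 from medians over cells and 0.13 without the 9 cells that stand apart. In cells with Y-linked reads it was 0.34, and in cells without them 0.032. It was 0.075 with both sets together and 0.073 with the set assigned by at least 1 of the genes. Leaving out each cell in turn gave 0.13 (without KO cell 84) to 0.25. Members past 1.5-fold higher numbered 1 with TMM, median-of-ratios, the stricter cell filter, thinning, or the deepest cells left out. They numbered 2 with members of at least 1 CPM, with Y-linked reads only and with the set by at least 1 gene, and 3 without Y-linked reads and with both sets. Lower members numbered 1 with Y-linked reads, 2 without, 1 with both sets and 1 with the set by at least 1 gene. Rpl39l, higher in KO, was reversed without the deepest cells (-0.078) and in cells without Y-linked reads (-0.24).

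For the stages in set 1, the median was -0.23 with both sets together and -0.22 with the set by at least 1 gene, and leaving out each cell gave -0.17 to -0.13. Lower members numbered 1 with cells weighted equally, 10 CPM added, thinning, the deepest cells left out, members of at least 50 CPM, medians over cells, named pseudogenes added or all copies added. They numbered 4 with members of at least 1 CPM, 5 with Y-linked reads only and 4 without. Higher members numbered 1 without the deepest cells, 2 with Y-linked reads, 1 without, 2 with both sets, 1 with the set by at least 1 gene and 1 from medians over cells. Rpl39l was reversed in cells with Y-linked reads (0.084).

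For the stages in set 2, the median was -0.30 with TMM, -0.29 with median-of-ratios and -0.27 without mitochondrial genes in the totals. It was -0.20 with cells weighted equally, -0.21 with 10 CPM added, -0.21 with thinning and -0.21 with named pseudogenes added. It was -0.18 with all copies added, -0.18 with the set by at least 1 gene and -0.17 from medians over cells. Leaving out each cell gave -0.25 to -0.22. Lower members numbered 6 with TMM and 4 with median-of-ratios, without mitochondrial genes, with members of at least 1 CPM and with the set by at least 1 gene. They numbered 1 with named pseudogenes added and 1 with all copies added, where higher members numbered 1 and 0.

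Of 2204 values of single named members under the alternatives, 1981 had the sign of the value reported. The split by Y-linked reads was not run in set 2, where no cell had such reads. Reads per cell limit the lowest paralogs, whose levels rest on few reads, and 1 sample a group leaves the spread between embryos unknown. No paired analysis was possible because cells of different groups share only a number.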
